A study of Mus musculus with 16 samples.

Results

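The Snrpn to Ube3a unit on mouse chromosome 7 was followed through 4 genes: Snrpn, D7Ertd715e, A330076H08Rik and Ube3a. They were picked by their symbols and by their place in the region, not by a threshold on values, and make up 4 of the 43472 genes in the count tables. A330076H08Rik lies outside the stretch from Ube3a to Snrpn. D7Ertd715e is an older symbol of Snhg14, the long host RNA that runs from Snrpn towards Ube3a. All 4 genes passed the filter on low counts in each comparison, A330076H08Rik in the PWS-IC comparison through its wild types, since it had at most 6 reads in a deleted library.

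Snrpn encodes SmN, a neuronal form of the SmB/B' protein of the spliceosomal core, and its transcript also carries the Snurf reading frame. In neurons the paternal chromosome is transcribed from the Snrpn side through the snoRNA clusters Snord116 and Snord115, whose host is Snhg14, and the far end of that RNA is antisense to Ube3a. The paternal copy of Ube3a, the gene of a HECT-type ubiquitin ligase, is held silent in neurons while the antisense RNA is made, so that the maternal copy supplies the protein; loss of the maternal copy causes Angelman syndrome. PWS-IC, the Prader-Willi imprinting centre, lies at the Snrpn promoter, and without it the paternal genes around it are not active. A330076H08Rik is a long noncoding RNA gene of the same region, whose span holds genes of the miR-344 family.

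The study set 2 mouse models side by side, 1 for Prader-Willi syndrome and 1 for congenital myasthenic syndrome-22, which follows loss of the serine hydrolase PREPL. Its 16 brain libraries form 4 groups of 4: PWS-IC deleted mice, wild types that served as controls for PWS-IC deleted, Prepl knockout mice, and wild types that served as controls for Prepl knockout. Poly(A) RNA was read from its 3' ends with the Lexogen QuantSeq kit, so a count does not grow with transcript length. The sources used here do not give age, strain, brain area, the extent of the deletion or the parent that transmitted it. They do not say that replicates came from different mice either, and the p-values then describe only the spread among these libraries, which may be technical. Levels are given in CPM, counts scaled to the reads in genes of each library, with a standard deviation over 4 libraries where ± follows a mean of a group.

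Reads in genes numbered 3477624 to 5852716 per library. The libraries carried 17.7% to 20.1% of their tabled reads outside genes in the PWS-IC deleted group, against 11.4% to 13.7% in its wild types. The share was 16.1% to 19.2% in Prepl knockouts and 15.98% to 19.6% in their wild types. The 4 Prepl knockouts were male and their wild types were 3 females and 1 male, whereas the PWS-IC groups had 2 of each sex. Prepl, the targeted gene, lay at 1.64 ± 0.453 CPM in the knockouts and 34.8 ± 1.35 CPM in their wild types (n = 4 each). The PWS-IC deletion has its check in the members themselves and in the other paternally expressed genes of the region. Of 12 neuronal marker genes none was at 0 in a whole group, and the brain label held for astrocyte, oligodendrocyte and microglial lists too, apart from the oligodendrocyte gene Mog, with 0 reads in both PWS-IC groups and 3 in each Prepl group.

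Start regions of the members are shown because RefSeq gives Snrpn and Snhg14, which changed alike in these data, a start in common. RefSeq (GRCm38.p6, a patch release of the assembly that mm10 denotes) gives Snrpn and Snhg14 a common upstream start at chromosome 7 position 60450177 and gives Snrpn and Snurf a common start at 60005199, all on the minus strand; the GENCODE M21 models start elsewhere, at 60140219 for Snrpn and 59975759 for Snhg14. The windows below run from 250 bases before to 50 bases after each start, 5' to 3' on the strand of the gene, with the letters CGCATGCG in capitals where they occur.
Snhg14 and Snrpn, upstream start, chr7:60450128-60450427, minus strand: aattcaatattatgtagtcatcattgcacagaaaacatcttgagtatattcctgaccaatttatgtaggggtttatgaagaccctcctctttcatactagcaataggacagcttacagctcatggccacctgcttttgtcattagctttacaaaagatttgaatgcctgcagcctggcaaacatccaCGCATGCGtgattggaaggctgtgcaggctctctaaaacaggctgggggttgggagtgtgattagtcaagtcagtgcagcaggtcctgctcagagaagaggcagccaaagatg
Snrpn and Snurf, chr7:60005150-60005449, minus strand: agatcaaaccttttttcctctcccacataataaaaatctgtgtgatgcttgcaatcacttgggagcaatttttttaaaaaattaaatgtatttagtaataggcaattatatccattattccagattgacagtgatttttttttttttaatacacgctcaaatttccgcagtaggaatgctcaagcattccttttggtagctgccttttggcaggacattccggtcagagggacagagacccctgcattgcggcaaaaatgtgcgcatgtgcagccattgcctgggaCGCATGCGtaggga
A330076H08Rik, chr7:61982306-61982605, minus strand: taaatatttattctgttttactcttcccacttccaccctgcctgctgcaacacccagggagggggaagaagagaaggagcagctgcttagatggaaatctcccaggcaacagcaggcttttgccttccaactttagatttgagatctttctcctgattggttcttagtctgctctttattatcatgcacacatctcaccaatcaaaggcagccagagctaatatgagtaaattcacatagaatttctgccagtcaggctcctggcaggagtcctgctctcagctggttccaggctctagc
Ube3a, chr7:59228500-59228799, plus strand: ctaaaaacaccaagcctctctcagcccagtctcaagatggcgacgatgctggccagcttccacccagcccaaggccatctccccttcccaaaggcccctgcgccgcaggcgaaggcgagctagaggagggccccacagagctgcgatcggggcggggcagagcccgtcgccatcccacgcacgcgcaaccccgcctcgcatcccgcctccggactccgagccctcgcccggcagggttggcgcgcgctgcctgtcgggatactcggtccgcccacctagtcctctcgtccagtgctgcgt
CGCATGCG reads the same on both strands and forms the core of the consensus of NRF1, a factor of many CpG-rich promoters; it was looked for after these windows had been read. It occurs in 1.87% of the 32851 RefSeq promoter windows of 300 bases. It was found once in each of the 4 Snrpn windows, with its first base 63 bases before the start that Snrpn shares with Snhg14 and 36 bases after the Snrpn and Snurf start. The Ndn window also held it once, but those of A330076H08Rik, Ube3a, Magel2, Mkrn3 and Peg12 did not. The upstream Snrpn start belongs to a set of near copies: its window was identical in 79.7% and 80.8% of aligned positions to those of 2 further Snrpn starts at the windows chr7:60140176-60140475 and chr7:60047929-60048228, and in 50.2% to the Snurf start. The windows also differ in base composition, with 69% GC and 29 CpG sites for Ube3a, against 45% and 2 for the upstream Snrpn start, 40.3% and 7 for the Snurf start, and 46.7% and 0 for A330076H08Rik; the median over all windows was 7 CpG sites.

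The span of A330076H08Rik (GENCODE M21, chr7:61930137-61982358, minus strand) holds Mir344-2 and Mir344g, shown here because a poly(A) count of the host is the only reading of this stretch in these libraries. The seed, bases 2 to 8, is in capitals.
mmu-miR-344-5p, chr7:61940073-61940098: aGUCAGGCuccuggcuagauuccagg
mmu-miR-344g-5p, chr7:61982335-61982355: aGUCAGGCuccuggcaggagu
mmu-miR-344-3p, chr7:61940036-61940058: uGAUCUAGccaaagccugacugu
mmu-miR-344g-3p, chr7:61982295-61982316: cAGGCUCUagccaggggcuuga
The 5p arms share the seed GUCAGGC, and the 3p arms have different seeds. The 5' end of the mature miR-344g-5p is the RefSeq start of A330076H08Rik (61982355). The 13 Mir344 genes of the region had 0 reads over all libraries, and the kit captures poly(A) tails, so these counts say nothing of the miRNAs.

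In PWS-IC deleted brain most of the RNA of the 3 minus-strand genes was gone, and there was more Ube3a RNA. Snrpn, D7Ertd715e and A330076H08Rik fell in PWS-IC deleted brain and Ube3a rose, each with groups that did not overlap. These 3 lower members stand against 1.55% of all 13636 genes tested that were called lower, and the 1 higher member against 2.96% called higher (edgeR quasi-likelihood test, Benjamini-Hochberg adjusted p under 0.05; 4.52% in either direction). Groups that do not overlap are a looser criterion, met by 11.8% of the genes tested. Ranked by p among those 13636 genes, D7Ertd715e stood at 2, Snrpn at 3, A330076H08Rik at 6 and Ube3a at 25. These shares and ranks are a scale and not a test, since the members were chosen with earlier results of these data known. A330076H08Rik passed the filter through its wild types, so only a lower call was open to it.

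Snrpn (GENCODE M21, chr7:59982495-60140219, minus strand), the SmN gene, was read at 28.6, 36.0, 24.2 and 28.1 CPM in the 4 PWS-IC deleted libraries, against 360.7, 348.9, 338.9 and 326.7 CPM in the wild types. All deleted libraries lay near the bottom of the scale, the highest of them far under the lowest wild type, and the groups did not overlap. The level fell by 3.54 on the log2 scale ± 0.112 (SE; edgeR quasi-likelihood test, adjusted p = 9.76e-15). Over the summed reads, 524 in deleted and 7532 in wild-type libraries, scaled by all reads in genes, 8.54% of the wild-type level remained (exact 95% interval 7.81% to 9.34%, which covers counting error only). In brain tissue, fewer cells of a type and less RNA per cell cannot be told apart, here and below. Snurf had 0 reads in all 16 libraries, although its reading frame lies on Snrpn transcripts. RefSeq ends both genes at the same 3' position, 59982495, so reads of 3' ends cannot tell them apart. The 0 therefore says nothing of the Snurf reading frame.

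D7Ertd715e, the Snhg14 host RNA (RefSeq, chr7:59272737-60450177, minus strand), showed 24.3, 24.4, 23.3 and 22.1 CPM in PWS-IC deleted libraries and 278.3, 283.2, 288.8 and 281.8 CPM in wild types. Both sets were tight, with a coefficient of variation of 4.58% in the deleted and 1.55% in the wild-type group, and did not overlap. The log2 fold change was -3.58 ± 0.0926 (SE; edgeR quasi-likelihood test, adjusted p = 3.15e-16). The deleted libraries kept 8.27% of the wild-type level (7.47% to 9.14%), an interval that overlaps that of Snrpn. The 195 snoRNA genes annotated within Snhg14 are short RNAs without poly(A) tails as a rule, and 12 of them had reads at all. Together they had 1 read in PWS-IC deleted libraries, against 38 in wild types, which is 3.23% of the wild-type level with a wide interval of 0.0798% to 19.1%.

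A330076H08Rik, the noncoding RNA on the same strand upstream of Snrpn, had 1, 0, 2 and 6 reads in the 4 PWS-IC deleted libraries, against 95, 72, 90 and 91 reads in wild types. In CPM these were 0.241, 0, 0.575 and 1.04 in deleted libraries and 16.2, 13.6, 16.4 and 17.3 in wild types. The groups did not overlap, and the deleted libraries spread widely for their level, with 9 reads in all. It fell by 4.91 on the log2 scale ± 0.371 (SE; edgeR quasi-likelihood test, adjusted p = 6.41e-08). The remaining level was 3.18% of wild type (1.44% to 6.10%). That interval lies under those of Snrpn and D7Ertd715e, but such intervals cover counting error only and leave out the spread between libraries. The test of its ratio to D7Ertd715e over libraries, given below, did not pass. Deleted replicate 4 held 6 of the 9 reads; without it the level was 1.57% and the log2 fold change -5.83.

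**Figure D1:**
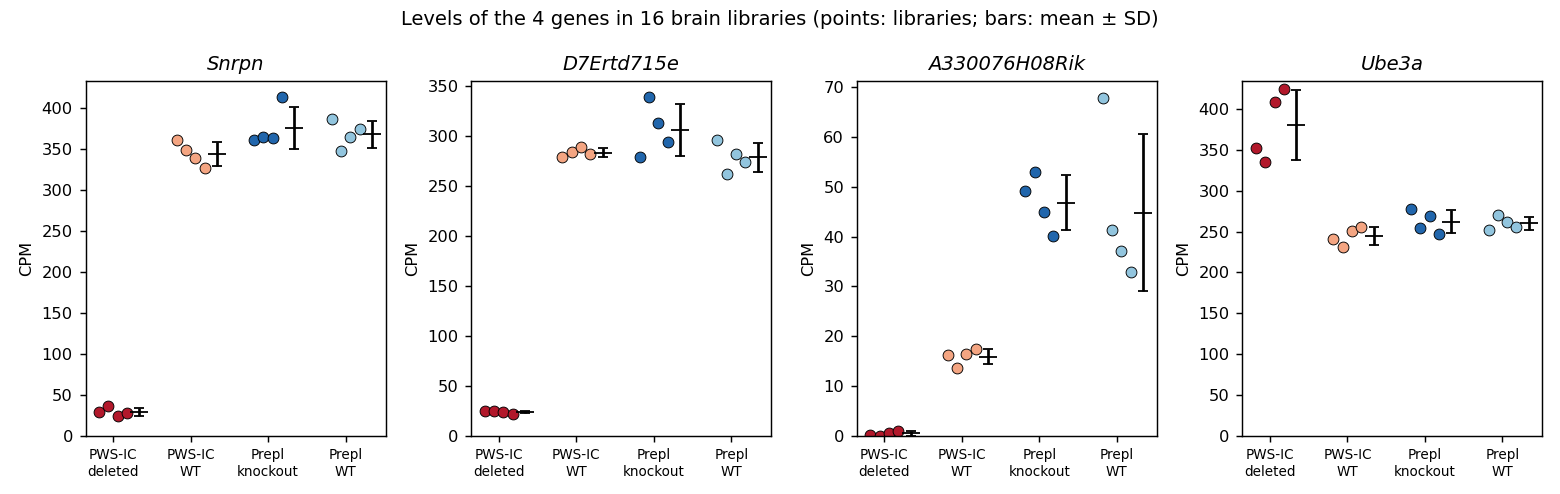
Level of each gene in CPM (vertical axis, linear, from 0) in the 4 groups; a point is a library and the bar beside each group is the mean ± SD (n = 4). Snrpn, D7Ertd715e and A330076H08Rik lie lowest in PWS-IC deleted libraries and Ube3a lies highest there, at 335.6 to 424.6 CPM.

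Ube3a (GENCODE M21, chr7:59228750-59311536, plus strand), the ubiquitin ligase gene transcribed against Snhg14, went the other way. Its level was 351.8, 335.6, 408.3 and 424.6 CPM in PWS-IC deleted libraries, against 241.3, 230.8, 250.8 and 255.7 CPM in wild types. Every deleted library exceeded every wild type, and the deleted group was the more scattered, with an SD of 43.1 CPM against 11.01 CPM in wild types. The log2 fold change was 0.64 ± 0.0846, a 1.56-fold higher level (edgeR quasi-likelihood test, adjusted p = 1.59e-04). Within the deleted group the 2 male libraries had the lower pair of values and the 2 female libraries the higher pair; among the wild types the males were also the lower pair, and neither difference was tested.

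The size of the Ube3a change depended on how libraries were scaled. The share of reads outside genes was higher in the deleted group, and with all uniquely aligned reads as the library size and no composition factor the log2 fold change of Ube3a was 0.41 (adjusted p = 0.00582, edgeR quasi-likelihood test). On that scale Ube3a had 229.9, 227.8, 266.3 and 286.3 CPM of aligned reads in deleted libraries and 180.3, 182.6, 195.4 and 201.7 CPM in wild types, still without overlap. The same scaling moved the median log2 fold change of all genes to -0.24, against -0.01 with TMM, so that Ube3a stood 0.65 above the median with all aligned reads and 0.66 above it with TMM. The sources used here do not state the strand setting of the counting. The last exon of Ube3a shares 1803 bases (chr7:59307924-59309726) with the last Snhg14 exon of GENCODE, so reads there cannot be assigned to a strand with certainty. The RefSeq span of Snhg14 reaches further into Ube3a, to 59272737, and the exon overlap in that model was not measured.

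**Figure D2:**
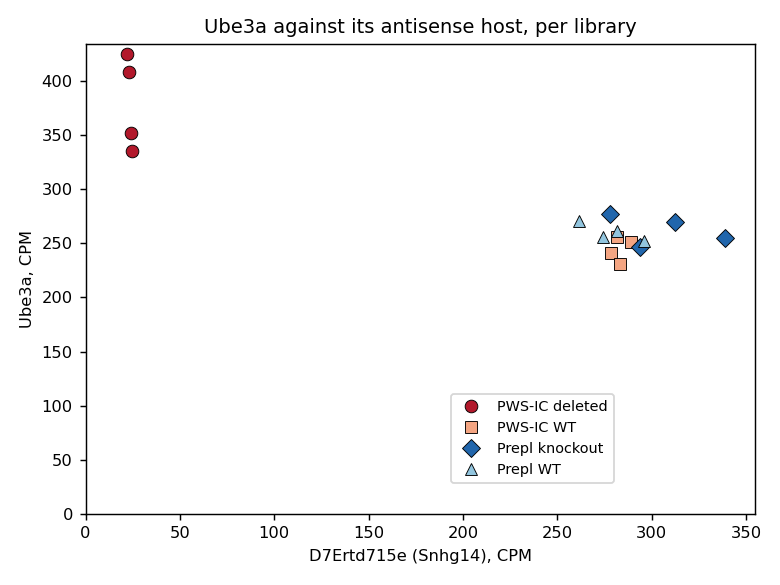
Each point is a library, with the level of D7Ertd715e (Snhg14) on the horizontal axis and that of Ube3a on the vertical axis, both in CPM from 0. The 4 PWS-IC deleted libraries stand apart at the upper left, and the libraries of the other 3 groups form a cloud at 261.6 to 338.7 CPM of D7Ertd715e and 230.8 to 277.5 CPM of Ube3a.

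Ratios of reads within a library do not depend on its scaling. There were 14.5, 13.8, 17.5 and 19.2 reads of Ube3a for each read of D7Ertd715e in PWS-IC deleted libraries, against 0.867, 0.815, 0.868 and 0.907 in wild types. The shift was 4.21 on the log2 scale, with no overlap (two-sided exact permutation test, p = 0.0286, the lowest that 70 assignments of 8 libraries allow, adjusted p = 0.171 over 6 ratio tests). Snrpn and D7Ertd715e kept close to each other: 1.18, 1.48, 1.04 and 1.27 Snrpn reads per D7Ertd715e read in deleted libraries and 1.30, 1.23, 1.17 and 1.16 in wild types. That log2 ratio differed by 0.02, less than the SD of 0.21 among deleted libraries (exact permutation test, p = 0.857, adjusted p = 0.971). The A330076H08Rik to D7Ertd715e ratio was lower in the deleted group by 1.64 on the log2 scale, with overlapping ranges after a pseudocount of 0.5 reads (exact permutation test, p = 0.0571, adjusted p = 0.171). That size rests on few reads: it was -0.99 without deleted replicate 2, which had 0 reads of A330076H08Rik, -2.13 without replicate 4, and -1.21 with a pseudocount of 1.

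Along the region from Ube3a to Peg12 the table lists 229 genes, of which 23 had a read and 9 had at least 50. Beside the members these are 4 paternally expressed protein genes, Ndn and Magel2 of the MAGE family, the makorin gene Mkrn3 and the Frat-related Peg12, and the noncoding A230006K03Rik. What remained in PWS-IC deleted brain, as a percentage of wild type, was 0.819% for Ndn (0.65% to 1.02%), 1.81% for Magel2, 3.65% for Mkrn3 and 1.02% for Peg12. A230006K03Rik had 0 reads in deleted libraries and 64 in wild types, which allows up to 7.29% of the wild-type level. The intervals of Snrpn and D7Ertd715e, the members nearest to the centre, lay above all of those of the 4 protein genes, whose highest upper bound was 6.08%, that of Mkrn3. These intervals too cover counting error only and leave out the spread between libraries. Set within a library, reads of Ndn per read of D7Ertd715e were 0.0891 to 0.297 in deleted libraries and 1.90 to 2.01 in wild types, a log2 difference of -3.50 without overlap; this ratio was chosen after its values were seen and is given with no test.

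**Figure D3:**
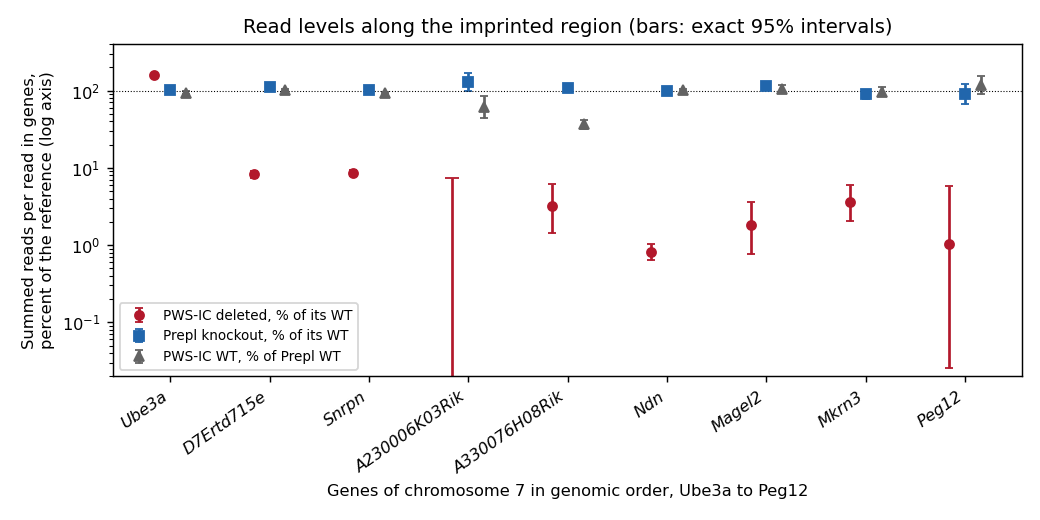
Summed reads per read in genes as a percentage of the comparison group (vertical log axis) for the 9 genes with at least 50 reads, in genomic order from Ube3a to Peg12. Bars are exact 95% intervals that cover counting error only, and the dotted line is 100%. A bar clear of that line is not a call: that of D7Ertd715e in Prepl knockouts, 106.4% to 114.3%, belongs to a gene not called by edgeR. In PWS-IC deleted mice Ube3a lies above the line at 156.4%, the paternal genes lie below 10%, and A230006K03Rik, with 0 reads, is drawn as a bar up to its upper limit.

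In the Prepl knockout the range of each member overlapped that of the wild types. None of the 4 was called by edgeR, DESeq2 or limma voom, where edgeR called 0.262% of 13722 genes, and 1 of them, D7Ertd715e, had an unadjusted p under 0.05, as did 9.43% of all genes. Snrpn was at 361.1, 364.5, 363.2 and 413.4 CPM in Prepl knockouts, against 386.1, 347.2, 364.5 and 374.3 CPM in their wild types. These ranges overlap, and a single knockout library, replicate 4, stands apart from the other 3. The log2 fold change was 0.06 ± 0.0677, with a 95% interval of -0.07 to 0.20 (edgeR quasi-likelihood test, adjusted p = 0.820).

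D7Ertd715e read 278.1, 338.7, 312.6 and 293.8 CPM in Prepl knockouts and 295.7, 261.6, 281.6 and 274.1 CPM in wild types. The knockouts reach higher but overlap the wild types, and the log2 fold change was 0.17 ± 0.0738 (edgeR quasi-likelihood test, adjusted p = 0.464, unadjusted p = 0.0273). Its 95% interval, not adjusted over genes, was 0.03 to 0.32 and lay wholly above no change. Ube3a, its antisense partner, was at 277.5, 254.6, 269.5 and 247.0 CPM in knockouts and 252.2, 270.6, 261.6 and 255.8 CPM in wild types. The ranges are nearly the same, with a log2 fold change of 0.05 and a 95% interval of -0.08 to 0.18 (edgeR, adjusted p = 0.878). Reads of Ube3a per read of D7Ertd715e were 0.752 to 0.998 in knockouts and 0.853 to 1.03 in wild types, and the ranges overlap.

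A330076H08Rik was at 49.1, 53.0, 44.9 and 40.1 CPM in Prepl knockouts and 67.8, 41.3, 37.1 and 33.0 CPM in their wild types. The wild types scatter most, with an SD of 15.7 CPM against 5.53 CPM in knockouts, and replicate 1 alone holds the top value. The log2 fold change was 0.11 ± 0.155, with a 95% interval of -0.19 to 0.41 (edgeR quasi-likelihood test, adjusted p = 0.880). Since the knockouts were all male, the 1 male wild type is the like-for-like library: it had 33.0 CPM of A330076H08Rik, 274.1 CPM of D7Ertd715e, 374.3 CPM of Snrpn and 255.8 CPM of Ube3a. Sex and genotype cannot be told apart beyond that library. With sex as a term the log2 fold change of A330076H08Rik was 0.54 ± 0.237, and without wild-type replicate 1 it was 0.37; neither was called (edgeR, adjusted p = 0.999 and 0.136).

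**Figure D4:**
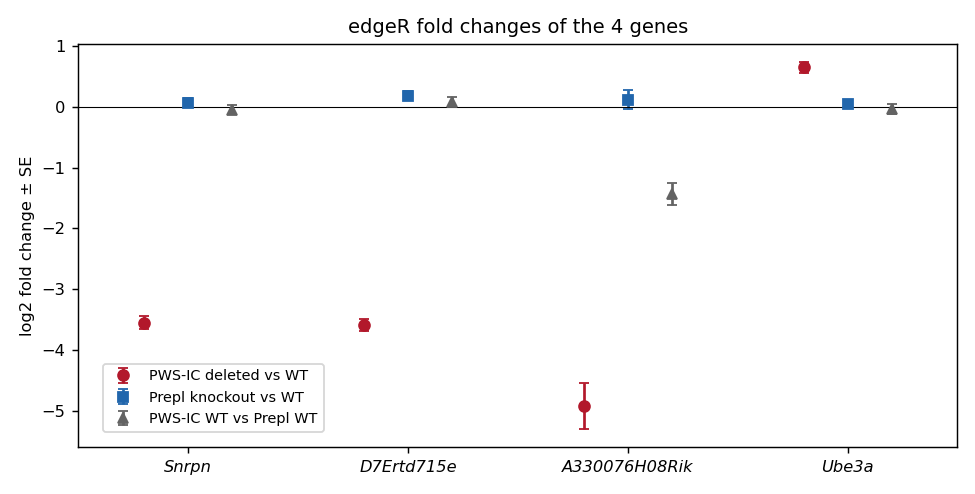
The log2 fold changes of the 4 genes (vertical axis) from edgeR, with bars of 1 SE, in the PWS-IC comparison, the Prepl comparison and between the wild-type groups. All 4 genes lie off 0 in PWS-IC deleted mice, none passed the test in Prepl knockouts, and A330076H08Rik alone is off 0 between the wild types, at -1.44.

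The effects of the 2 mutations on the members differed when the difference itself was tested over all 16 libraries. The PWS-IC effect minus the Prepl effect was -3.60 ± 0.131 for Snrpn, -3.75 ± 0.121 for D7Ertd715e and -5.01 ± 0.437 for A330076H08Rik on the log2 scale. Their edgeR adjusted p-values were 2.85e-19, 1.28e-20 and 3.29e-09. For Ube3a the difference was 0.60 ± 0.105 (edgeR, adjusted p = 0.00204). All 4 were called, where 0.778% of 14392 genes were (0.292% higher and 0.486% lower). With all uniquely aligned reads as the library size the Ube3a difference was 0.43 and no longer passed (edgeR, adjusted p = 0.0618).

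Between the wild-type groups, A330076H08Rik was the member that differed. PWS-IC wild types had 16.2, 13.6, 16.4 and 17.3 CPM, as given above, and Prepl wild types 33.0 to 67.8 CPM, with no overlap, which 14.9% of all genes tested showed in the same direction. The log2 fold change of PWS-IC wild types over Prepl wild types was -1.44 ± 0.180 (edgeR quasi-likelihood test, adjusted p = 6.17e-06), where 23.8% of 13756 genes were called, 12% lower and 11.8% higher. Without Prepl wild-type replicate 1, the library with the top value, it was -1.17, and with sex as a term -1.34. Within PWS-IC wild types the males had 95 and 72 reads and the females 90 and 91. In Prepl wild types the 1 male had 173 reads and the females 215 to 307.

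The other genes of the region lay closer together between the wild-type groups. Snrpn differed between PWS-IC and Prepl wild types by -0.05 ± 0.0779, D7Ertd715e by 0.07 ± 0.0765 and Ube3a by -0.04 ± 0.0749 on the log2 scale, and none was called (edgeR, adjusted p = 0.695, 0.537 and 0.741). Ndn, Magel2, Mkrn3 and Peg12 lay between -0.02 and 0.30. As summed reads, A330076H08Rik in PWS-IC wild types was 36.4% of Prepl wild types (32.1% to 41.2%), and the next lowest gene of the region, A230006K03Rik, was 61.9% (44.5% to 85.5%) without a call (edgeR, adjusted p = 0.283). Reads of A330076H08Rik per read of D7Ertd715e were 0.0481 to 0.0615 in PWS-IC wild types and 0.120 to 0.229 in Prepl wild types, a log2 difference of -1.46, given with no test because the ratio was chosen after its values were seen. All 5 blood marker genes were higher in PWS-IC wild types, with a summed level of 1796 to 3970 CPM against 659.9 to 1145 CPM in Prepl wild types. Lower there were 3 of 6 tested oligodendrocyte markers, with sums of 215 to 226 CPM against 270 to 338 CPM, and 4 of 12 neuronal markers. Of 7 tested choroid plexus markers 3 were higher. Of 9 astrocyte markers 1 was higher and 2 were lower, and the microglial, endothelial and meningeal lists each had 1 lower. Over all genes 12% were called lower and 11.8% higher. The part of these cell types in the A330076H08Rik difference was not tested.

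Placed in order over the groups, the levels of Snrpn and D7Ertd715e were highest in Prepl knockouts, close behind in the 2 wild-type groups and lowest in PWS-IC deleted mice, and only that last step is free of overlap. A330076H08Rik had 2 steps without overlap, with means of 0.463 CPM in PWS-IC deleted mice, 15.9 CPM in their wild types, and 46.8 and 44.8 CPM in Prepl knockouts and Prepl wild types. Ube3a averaged 380.1 CPM in PWS-IC deleted mice, above and apart from 262.2 CPM in Prepl knockouts, 260.0 CPM in Prepl wild types and 244.6 CPM in PWS-IC wild types, which overlap.

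The genes whose profile over the 16 libraries was most like that of a member were found by the root mean square difference of log2(CPM + 1), each gene centred on its own mean, among 11380 genes with a mean of at least 5 CPM. Nearest to Snrpn were Mkrn3 at 0.315, Magel2 at 0.358 and the mitochondrial mt-Nd4l at 0.847, and nearest to D7Ertd715e were Magel2 at 0.342, Mkrn3 at 0.349 and mt-Nd4l at 0.837. The added 1 CPM makes falls of low genes look smaller, so this is not a likeness in fold change. In PWS-IC deleted mice the edgeR log2 fold changes were -4.73 for Mkrn3, -5.71 for Magel2 and -1.44 for mt-Nd4l. Those of Snrpn and D7Ertd715e were -3.54 and -3.58. A330076H08Rik had no such close neighbour, with Magel2 at 0.686, Mkrn3 at 0.760 and Ndn at 1.20. For Ube3a the nearest were Ddx46, an RNA helicase gene, at 0.109, the chaperone gene Hsp90ab1 at 0.114 and the cohesin gene Smc3 at 0.118, where Ube3a itself varied by 0.262 about its mean. Being chosen by likeness, these genes are given as a description: Ddx46 was at 146.3 ± 19.8 CPM in PWS-IC deleted mice and 97.3 ± 12.2 CPM in wild types, Hsp90ab1 at 3278 ± 74.3 CPM in deleted mice and 2327 ± 101.9 CPM in wild types, and Smc3 at 378.2 ± 41.4 CPM in deleted mice and 271.3 ± 25.0 CPM in wild types.

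Partners of the encoded proteins were examined as lists. Of the 15 genes of the Sm and U1 core and its assembly, into which SmN is built, 1 was called in PWS-IC deleted mice: Snrpd1, an Sm core gene, rose by 0.34 ± 0.0766 (edgeR, adjusted p = 0.0125), to 283.0 ± 6.66 CPM in deleted mice against 224.0 ± 8.11 CPM in wild types. Among all genes 4.52% were called, so 1 of 15 is near that share, and the median of the list was 0.00, beside -0.01 over all genes. Snrpb, the gene of the SmB/B' proteins that SmN resembles, was at 81.7 ± 4.02 CPM in deleted mice and 92.9 ± 6.18 CPM in wild types and was not called. Of 31 tested genes that act with or beside UBE3A in ubiquitin transfer, 1 was called: Uba1, the main ubiquitin-activating enzyme, fell by 0.41 ± 0.0838 (edgeR, adjusted p = 0.00769), to 342.6 ± 26.45 CPM in deleted mice against 455.8 ± 20.3 CPM in wild types. That count too is near the 4.52% of all genes, and the median of the list was -0.01. DESeq2 called Uba1 and the conjugating enzyme gene Ube2d3, and limma voom called Uba1 alone. Ube2l3, the gene of a conjugating enzyme that works with UBE3A, was at 120.8 ± 12.02 CPM in deleted mice and 117.5 ± 7.28 CPM in wild types.

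Of 16 tested genes whose proteins have been reported as UBE3A substrates or targets, none was called in PWS-IC deleted mice by edgeR, DESeq2 or limma voom, and 4 had an unadjusted p under 0.05, where 18.2% of all genes did; the median was -0.04. Of 18 genes linked to imprint maintenance or to the Ube3a antisense RNA, none was called by edgeR, the median was -0.01, and 2 had an unadjusted p under 0.05, the splicing factor gene Rbfox1 (0.28 ± 0.0806, adjusted p = 0.0524), which DESeq2 and limma voom both called, and Trim28, a cofactor in imprint maintenance (-0.26 ± 0.0876, adjusted p = 0.0955). Of 8 tested neighbours of the unit that are not paternally expressed, among them Herc2, which encodes an activator of UBE3A, none was called by edgeR, DESeq2 or limma voom and none had an unadjusted p under 0.05, with a median of -0.05. Herc2, which the ubiquitin list holds too, was at 215.8 ± 12.35 CPM in deleted mice and 203.0 ± 8.99 CPM in wild types. Atp10a, which lies beside Ube3a, was too low to test in this comparison, with 34 reads in deleted and 11 in wild-type libraries. Its level was 1.92 ± 0.513 CPM in deleted mice and 0.496 ± 0.453 CPM in wild types, without overlap. It was 1.61 CPM in Prepl knockouts and 1.60 CPM in Prepl wild types. In the difference of effects over 16 libraries all 10 neighbours were tested and edgeR called 0. In Prepl knockouts no gene of these 5 lists was called by edgeR, DESeq2 or limma voom; at an unadjusted p under 0.05 there were 1 Sm and U1 gene, 2 ubiquitin genes, 2 substrate genes, 3 imprint regulators and 0 neighbours, where 9.43% of all genes passed that threshold. The median log2 fold changes there were 0.06 for Sm and U1 genes, 0.00 for ubiquitin genes, 0.08 for substrate genes, -0.08 for imprint regulators and -0.01 for neighbours, beside 0.00 over all genes.

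**Figure D5:**
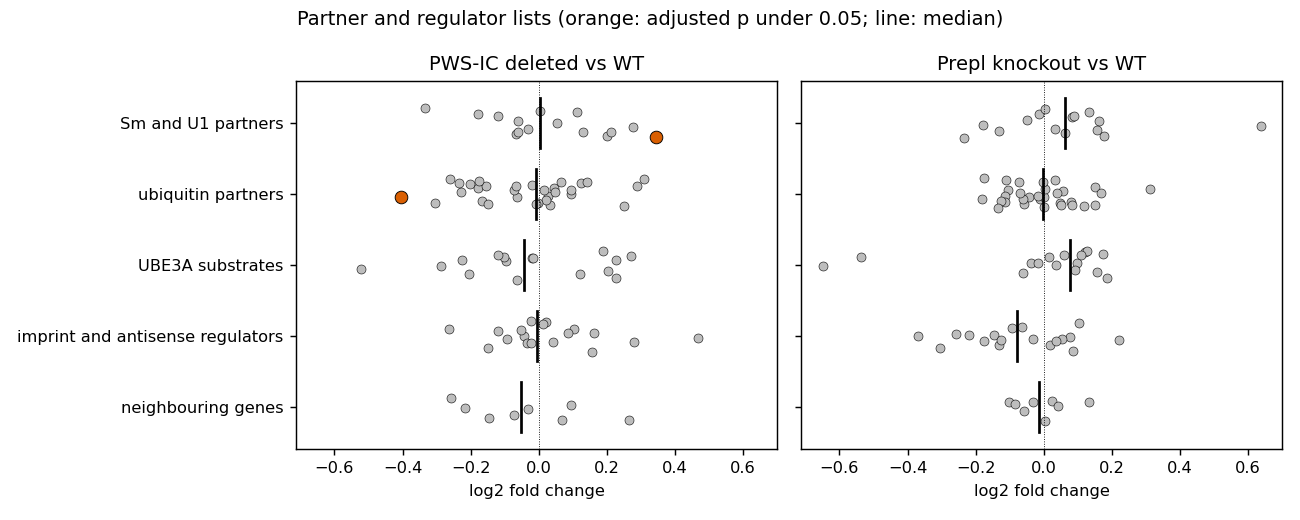
Each point is a tested gene of a partner or neighbour list, placed by its log2 fold change (horizontal axis) in PWS-IC deleted mice (left) and Prepl knockouts (right); orange marks an adjusted p under 0.05 and the vertical line the median of a list. The genes called by edgeR are Snrpd1 at 0.34 and Uba1 at -0.41, both in PWS-IC deleted mice.

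Markers of other cells moved with the PWS-IC groups. Over all genes tested there, edgeR called 1.55% lower and 2.96% higher, and 18.2% had an unadjusted p under 0.05. Of 12 neuronal markers 0 were called by edgeR (4 at an unadjusted p under 0.05). DESeq2 called 2 of the neuronal markers higher, Tubb3 at 0.26 and Nefm at 0.31 in edgeR's log2 fold change, and limma voom called 1, Tubb3. Their summed level was 6856 to 7408 CPM in deleted mice against 6692 to 7035 CPM in wild types. Of the blood markers 4 of 5 were lower in deleted mice, with sums of 1203 to 1629 CPM against 1796 to 3970 CPM, and of the meningeal markers 5 of 8, with sums of 314 to 336 CPM against 400 to 672 CPM. Of 7 tested choroid plexus markers 3 were called lower, with sums of 415.5 to 1727 CPM in deleted mice and 1416 to 2181 CPM in wild types. All 7 had an unadjusted p under 0.05, but not in the same direction, with log2 fold changes from -1.29 to 0.48. Of 9 astrocyte, 6 oligodendrocyte and 8 microglial markers tested, edgeR called 1 on each list lower (Sox9, Cnp and Csf1r). Csf1r was not called by limma voom. These lists held genes of both directions, with log2 fold changes of -0.42 to 0.31, -0.56 to 0.06 and -0.63 to 0.32 in that order. Of 6 endothelial markers 0 were called by edgeR, DESeq2 or limma voom and 0 had an unadjusted p under 0.05. None of the neuronal, blood, meningeal and choroid plexus markers was at 0 in a whole group. In Prepl knockouts 1 gene of the 8 marker lists was called by edgeR and 0 by DESeq2 or limma voom, the globin gene Hba-a2, with a log2 fold change of -3.60 ± 0.723 (edgeR, adjusted p = 0.0262). Among all genes tested edgeR called 0.262% in that comparison. The part of these cell types in the Ube3a difference was not tested.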

How the data were processed

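RNA of mouse brain was measured in 16 libraries. The deposited values are counts: for each library the authors gave a whole number of reads per gene symbol. HISAT2, HTSeq and mm10 are named in the submitters' processing notes; versions, annotation and strand setting are not given in the sources. The 5 totals that name no gene, 53.6% to 61.9% of the tabled reads, stayed out of library sizes and tests.

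Groups followed the titles. Counts were tested with edgeR 4.0.16 under R 4.3.3: filterByExpr (minimum count 10, minimum total 15), TMM, quasi-likelihood fit and F-test, Benjamini-Hochberg adjustment over all genes tested, threshold 0.05. Each mutant was fitted with its own wild types, the wild-type groups with each other, and the difference of effects over 16 libraries. The procedure was tested on simulated data. Ratios of reads used a pseudocount of 0.5 and exact permutation tests. Intervals of percentages are exact 95% Clopper-Pearson intervals of summed reads (SciPy 1.17.1) and cover counting error only. Counts of replicates differed beyond sampling noise, with a lowest chi-square per degree of freedom of 2.43. Sex was read from Xist and Y-linked genes. Alternatives were RLE factors, scaling to all uniquely aligned reads, other filters, DESeq2 1.42.0, limma 3.58.1 voom, sex or replicate number as a term, 1 fit of 16 libraries, and leaving out each library. The motif letters and 2 ratios, given without a test, were chosen after values were seen.

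The members and gene lists were chosen with earlier results of these data known. Named genes are the members, genes of the region, the called genes of each list or the 2 with the smallest p, and the 3 nearest profiles per member; Snrpb, Ube2l3, Herc2 and Atp10a were added from the lists for their roles. Single genes of the substrate list are not reported here. Coordinates are from GENCODE M21 or RefSeq for GRCm38, and sequences from RefSeq GRCm38.p6, where all 4 members and Snurf, Ndn, Magel2, Mkrn3 and Peg12 matched.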

Additional observations from a re-analysis of the deposited data

Results flagged for a closer look

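The difference between the effects of the PWS-IC deletion and the Prepl knockout passed its test for each member, tested as a contrast over all 16 libraries with edgeR: -3.60 on the log2 scale for Snrpn, -3.75 for D7Ertd715e, -5.01 for A330076H08Rik and 0.60 for Ube3a. Snrpn in Prepl knockouts had a library far from the others: replicate 4, at 413.4 CPM, was separated from the nearest of the other knockouts by 0.935 of the range of the group, above the limit for 4 samples; chance gives such a gap in about 1 in 20 groups, and 28 groups were examined.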

How the results depend on the processing

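With the libraries scaled to all uniquely aligned reads, Ube3a in Prepl knockouts against wild types was -0.015 in place of 0.05, PWS-IC against Prepl wild types gave 0.028 for Snrpn and 0.037 for Ube3a in place of -0.05 and -0.04, the Ube3a difference of effects was 0.43, D7Ertd715e in PWS-IC deleted mice was 7.10% and Ube3a 134.3% of wild type; the construction of that scaling moves all genes together. The Prepl effect on A330076H08Rik, 0.11, was 0.54 with a sex term and ran from -0.0067 to 0.37 with a library left out in turn. Over the same omissions, the Snrpn to D7Ertd715e log2 ratio in the PWS-IC comparison ran from -0.068 to 0.10, and the A330076H08Rik to D7Ertd715e ratio in the Prepl comparison from -0.14 to 0.17; none of these values was called, and the cause was not tested. Counts of called genes moved most: 616 in PWS-IC deleted mice became 2716 with all aligned reads, 945 with no filter, 989 with the replicate number as a block, 1119 with a sex term, 999 in 1 fit of 16 libraries and 362 to 653 with a library left out (362 without deleted replicate 1, 394 without wild-type replicate 3); 36 in Prepl knockouts became 16, 156, 6 and 18 with all aligned reads, no filter, a sex term and 1 fit, and 12 to 103 with a library left out (103, 12 and 22 without wild-type replicates 1, 2 and 3, and 23, 16 and 17 without knockout replicates 1, 2 and 4). Replicate numbers are not stated to pair samples. Deviations of same-numbered libraries correlated at -0.0219, 0.169, 0.180 and 0.145 for replicates 1 to 4 of the PWS-IC comparison, where such libraries also share their sex, and at -0.0671 to 0.0456 in the Prepl comparison; since not every pair passed 0.1, the numbers were not taken to pair samples. In the PWS-IC comparison libraries 2 and 3 correlated best with their own number, and 1 and 4 did not. With the replicate block Ube3a rose by 0.64 in PWS-IC deleted mice, and no call on a member changed. The calls on the 4 members in PWS-IC deleted mice held under all 17 alternatives run, with Ube3a between 0.41 and 0.69. Depth limits A330076H08Rik and the snoRNA genes in deleted mice, at 9 and 1 reads.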
